A study of Mus musculus with 4 samples.

Results

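The cells described here were picked from mouse inner ear organoids of day 25 by 6 genes. A cell was a member when it carried at least 1 UMI (unique molecular identifier, a tag that marks 1 captured transcript) in at least 4 of Otor, Cldn11, Slc6a13, Aldh1a2, Gjb6 and Slc7a11. Barcodes with fewer than 500 genes or with more than 10% of UMIs from mitochondrially encoded genes were left out first. The gate found 353 cells in the WT library and 405 in the KO library. These 758 cells were part of 20958 kept cells of day 25 and of 35853 kept cells in the series. The levels of the 6 genes chose the cells, so those levels are a description and were not tested.

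The study profiled organoids, which are 3D cultures grown from embryonic stem cells, by droplet single-cell RNA-seq. WT organoids came from the R1/E mouse embryonic stem cell line and KO organoids from the same line carrying Tmprss3KO-GFPKI, a knockout of Tmprss3 with a GFP knock-in. Both lines have the strain background 129X1x129S1, and both were sampled at day 25 and day 35. The labels name no other treatment and do not say how many KO clones or organoids were used. Each group was 1 library, so there was no replicate error to test against, and no p-value is given. Every interval is a 95% interval that covers counting error only.

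Fibroblasts that surround nervous tissue and the inner ear are not uniform. The leptomeninges, the inner coverings of the brain, are formed by fibroblasts that carry out transport of solutes, make retinoic acid and secrete the lipid carrier protein prostaglandin D synthase. The inner ear has related cells: Otor (otoraplin) and Coch are secreted by mesenchyme and fibrocytes of the cochlea, and connexins such as Gjb2 and Gjb6 join fibrocytes and supporting cells so that ions can pass between them. Cldn11 makes a tight junction strand in the basal cells of the stria vascularis, in myelin and in the arachnoid.

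The 4 libraries held 7077 to 11307 barcodes, of which 88.3% to 99.0% were kept, with a median of 3089 to 6371 UMIs per kept cell. The members had a median of 6236 UMIs and 2247 genes in WT and 6468 UMIs and 2352 genes in KO at day 25. Their median mitochondrial share was 3.93% and 3.41%, against 2.27% and 1.91% in other mesenchymal cells. Those other mesenchymal cells carried at least 4 of Dcn, Lum, Pdgfra, Col5a1, Col6a3 and Prrx1 and were not members, and they numbered 3048 in WT and 4389 in KO. The WT and KO libraries of day 25 shared 142 barcode sequences, none of them between members. Tmprss3, the targeted gene, had 0 UMIs in the members of each library, which at day 25 allows up to 1.38 CPM (UMIs of a gene per 1000000 UMIs of the same cells) in WT and 1.16 CPM in KO by the exact Poisson bound. Counts from the 3' end of a transcript do not test the knockout in cells where WT has none either.

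Of the 6 gate genes, 5 were each carried by 77.6% or more of the members and Otor by few. Cldn11 was found in 96.3% of WT and 96.3% of KO members, at 752 and 740 CPM. Slc6a13, a transporter of GABA and taurine, was in 90.4% and 91.6%, at 538 and 582 CPM. Slc7a11, the cystine and glutamate exchanger, was in 87.8% and 89.1%, at 480 and 539 CPM. Gjb6, which encodes connexin 30, was in 82.4% and 82.0%, at 277 and 278 CPM. Aldh1a2, an enzyme that makes retinoic acid, was in 77.6% and 78.8%, at 248 and 237 CPM. In the other mesenchymal cells these 5 genes were found in 2.69% to 14.7% of cells. Cells with at least 4 of 6 neuronal genes, as a measure of free RNA, had them in 0.73% to 6.71% of cells, at median depths of 5061 UMIs in WT and 5891 in KO.

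Otor does not mark these cells, although it is 1 of the genes that chose them. Otor was found in 21 WT members (5.95%) and 11 KO members (2.72%). Its summed level was 16.9 CPM (45 UMIs) in WT members and 36.4 CPM (116 UMIs) in KO members, against 36.2 and 5.48 CPM in all other kept cells. In KO 1 cell held 49 of those 116 UMIs. Members held 1.74% of all Otor UMIs of the WT library and 20.7% of the KO library. Only 14 WT and 5 KO members needed Otor to pass the gate. Cells outside the gate with at least 5 Otor UMIs numbered 44 in WT and 6 in KO. These carried Col2a1, the main collagen of cartilage and of early otic tissue, at 1608 and 1539 CPM, and Coch at 683 and 43.4 CPM, while members had Coch at 7.12 CPM in WT and 0 UMIs in KO. They had Ptgds at 124 CPM in WT and 0 in KO. The members are therefore called Cldn11 and Slc6a13 cells here.

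**Figure D1:**
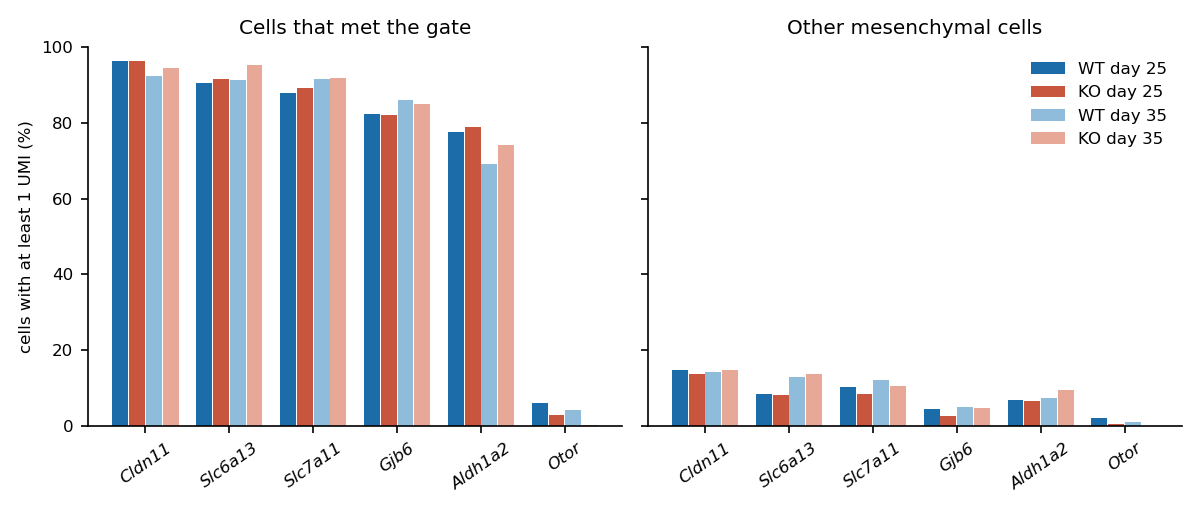
Share of cells (%, y axis) with at least 1 UMI of each gate gene, in cells that met the gate (left) and in other mesenchymal cells (right), for the 4 libraries. Cldn11 reached 96.3% of the day 25 gate cells in both genotypes, whereas Otor reached 5.95% and 2.72%.

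Cells just below the gate carried its genes too. The cells were sorted by the number of these genes found, so higher levels with 4 genes than with 3 follow largely from the sorting. They are a description and were not tested. Cells with exactly 3 of the genes numbered 249 in WT and 242 in KO, and cells with exactly 4 numbered 212 and 243. Cldn11 was at 463 and 444 CPM in the cells with 3 genes and at 659 and 642 CPM in those with 4. Gjb6 was at 114 and 75.9 CPM with 3 genes and at 224 and 217 CPM with 4. Otor ran the other way, at 374 and 163 CPM with 3 genes and 23.1 and 34.3 CPM with 4. Few cells carried it, 27 WT and 7 KO cells with 3 genes and 14 and 5 with 4. Cells with all 6 genes numbered 2 in each library.

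Slc7a11 is the gate gene whose regulation is best known, and its promoter is shown because the 2 stress pathways that act on it, through ATF4 and through NRF2, were both among the gene lists examined. The gene lies on the minus strand at chr3:49892526-50443614 (GRCm38). The window below is RefSeq's entry for chr3:50443564-50443863 on the minus strand (GRCm38.p6), 250 bases before to 50 after the start, 5′ to 3′. Capitals mark the amino acid response element core TGATGCAA, the site type bound by ATF4, searched on both strands.
Slc7a11: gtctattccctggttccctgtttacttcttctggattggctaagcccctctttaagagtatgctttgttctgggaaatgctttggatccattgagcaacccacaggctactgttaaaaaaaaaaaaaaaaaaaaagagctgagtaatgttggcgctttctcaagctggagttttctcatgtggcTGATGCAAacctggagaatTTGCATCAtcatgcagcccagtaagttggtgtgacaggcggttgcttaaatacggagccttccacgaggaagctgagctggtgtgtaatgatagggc
The core occurred 2 times, beginning 66 bases before the start on the gene's strand and 47 bases before it on the opposite strand. It was found in 0.895% of 32851 promoter windows and in Slc7a11 alone among the 6 gate genes, all of which had an entry. The TGACNNNGC form of the antioxidant response element, to which NRF2 binds, was found in 12.4% of windows but not in this one. Among the gate genes Aldh1a2 and Slc6a13 had this form. Other forms of the element were not searched, so nothing is said on whether this window has an NRF2 site. The letters describe the window and do not show that a factor was bound in these cells.

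Ptgds had the largest fold of the members over the other mesenchymal cells. Folds in this description were taken after adding 10 CPM to each level, and since the gate picked the cells from the same counts they were not tested. Ptgds, the prostaglandin D synthase, stood at 8776 CPM in WT members and 7345 in KO members, against 213 and 100.2 CPM in other mesenchymal cells, a fold of 39.4 and 66.8. Apod, a lipid carrier of the same lipocalin family, was at 1744 and 1706 CPM, 7.66-fold and 8.29-fold higher. Slc22a6, an organic anion transporter, was at 106 and 79.7 CPM against 3.13 and 1.28. Slc1a3, a glutamate transporter, was at 635 and 583 CPM against 122 and 91.8. Gjb2, which encodes connexin 26, was at 82.1 and 70.6 CPM against 7.68 and 4.39. All of these were higher in the members of both libraries. Among the 15 genes with the largest fold the rule also named Asgr1, Gsta4, Foxc1, Gm14964, Itih2, Pltp, Nqo1, Tmem37 and Ntm. The genes given with values were chosen from these for their known roles, and the order depended on the amount added, since with 1 CPM or 50 CPM in place of 10 only 6 of the 15 genes stayed among the first 15 in each case.

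**Figure D2:**
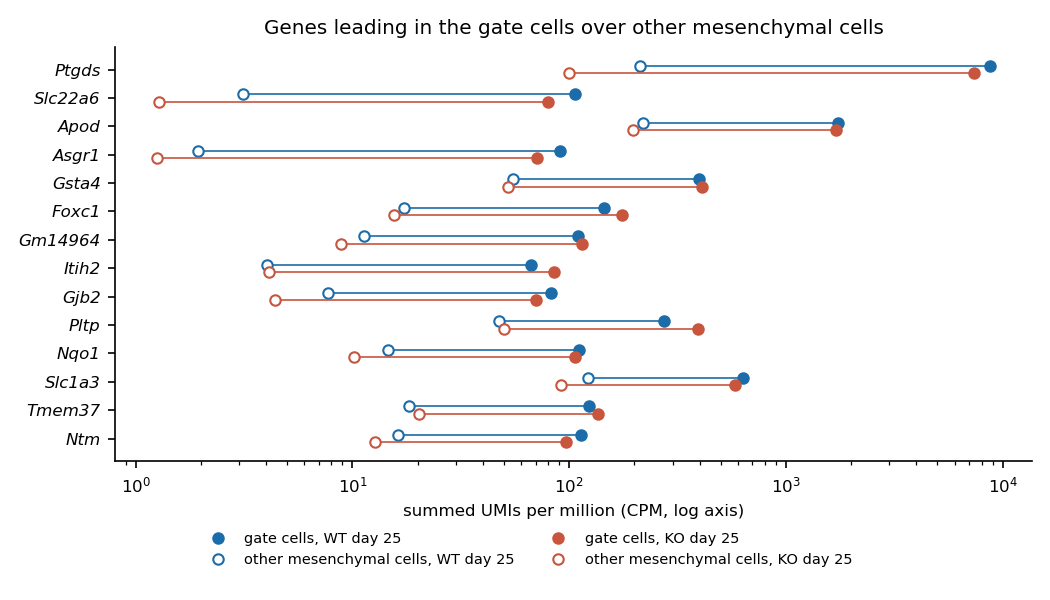
Summed UMIs in CPM (log axis) of 14 of the 15 genes with the largest fold over other mesenchymal cells, in day 25 gate cells (filled) and other mesenchymal cells (open) of each library. Ptgds stood apart at 8776 CPM in WT and 7345 CPM in KO gate cells.

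Against all other kept cells of day 25 the same rule gave a list of 20 genes that overlapped with this one and added Ifitm1, Cyp1b1, Enpp2, Tgfbi, Maf, Itih5, Ramp2, Sepp1, Vtn and Foxd1. Sepp1, which encodes a selenium carrier of plasma, had a UMI in 95.2% of WT and 95.6% of KO members, at 582 and 815 CPM against 88.6 and 129 CPM in all other cells. Ramp2, a receptor partner for adrenomedullin, was at 546 and 573 CPM against 55.2 and 84.6. Enpp2, the enzyme that makes lysophosphatidic acid, was at 459 and 477 CPM against 59.2 and 55.2. Vtn (vitronectin), an adhesion protein, was at 289.7 and 529.9 CPM and was found in 50.7% and 58.8% of members, so it was less widely carried than Sepp1. Cyp1b1, a monooxygenase that can oxidise retinol, was at 279.9 and 283 CPM against 28.4 and 32.8.

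The 10 genes lowest in the members by the same fold were of several kinds. Car3, a carbonic anhydrase of muscle and fat, was at 22.5 and 38.3 CPM against 533 and 593 CPM in other mesenchymal cells. Fabp4, the fatty acid binding protein of adipocytes, was at 265 and 155 CPM against 1171 and 1187. Rbp4, the plasma carrier of retinol, was at 79.8 and 61.5 CPM against 483 and 459. Sfrp2, a secreted Wnt modulator, was at 15.7 and 24.8 CPM against 210.4 and 171. Lpl, Aspn, Adipoq, Cyr61, Tnfaip6 and Retn completed the 10. Adipoq, an adipocyte hormone gene, was rare in both sets, found in 1.70% of WT and 4.20% of KO members and in 4.56% and 5.33% of other mesenchymal cells. Across 11804 genes, 228 (1.93%) were at least 2-fold higher in members of both libraries and 133 (1.13%) at least 2-fold lower.

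More of the leptomeningeal fibroblast list than of the inner ear fibrocyte lists was higher in the members. The lists were chosen with earlier results of these data known, so the counts are a description and were not tested. The leptomeningeal list shares Ptgds, Slc22a6, Foxc1 and Foxd1 with the leading genes above. Of the 16 leptomeningeal genes, 13 were at least 2-fold higher than in other mesenchymal cells in both libraries and none was at 0. The list summed to 12310 CPM in WT and 10290 in KO members against 2317 and 1008 CPM, and Ptgds made up most of it. Among the transcription factors, Foxc1 was at 144 and 175 CPM against 17.4 and 15.5, and Zic1 at 135 and 124 CPM against 25.0 and 15.3. Tbx18 was at 94.8 and 68.4 CPM against 19.1 and 9.29, and Foxd1 at 88.8 and 75.3 CPM against 8.84 and 8.26. FOXC1 is required for the meninges in mouse, and TBX18 for the otic fibrocytes. The transporters Slc13a4 and Slc13a3 and the gene Ranbp3l were at 16.9 to 36.1 CPM in members and at most 7.29 CPM in other mesenchymal cells.

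Other lists that these cells could have met were weaker. The other mesenchymal cells were themselves chosen by Dcn, Lum, Pdgfra and Prrx1, among others. These genes of the general fibroblast and periotic lists therefore had little room to be higher in members. Of the arachnoid barrier genes 0 of 8 were 2-fold higher, and Slc47a1 was at 0. Of the dural genes 2 of 8 were, Fxyd5 and Cyp1b1. Of the periotic mesenchyme genes 2 of 10 were, Foxc1 and Eya1, while Tbx1, Tcf21, Dach1, Six2 and Coch stayed under 10 CPM. Of the spiral ligament fibrocyte genes 3 of 12 were higher, Gjb2 and Kcnk2 among them, Car3 was lower, Otos was at 0 and Slc26a4 was under 10 CPM. Of the strial basal cell genes Gjb2 and Nr2f2 were higher. Genes of oligodendrocytes, another known site of Cldn11, summed to 14.2 and 42.7 CPM, with Mog, Mobp, Opalin and Ermn at 0. Hair cell genes summed to 17.6 and 8.16 CPM and macrophage genes to 1.12 and 7.22 CPM. The lists for choroid plexus, endothelium and astrocytes were each carried by 1 or 2 genes, namely Enpp2, Cdh5 with Emcn, and Slc1a3. The general fibroblast genes remained high at 10050 and 12220 CPM, with Postn, Dpt, Mfap5, Agtr2 and Twist2 at least 2-fold below the other mesenchymal cells.

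**Figure D3:**
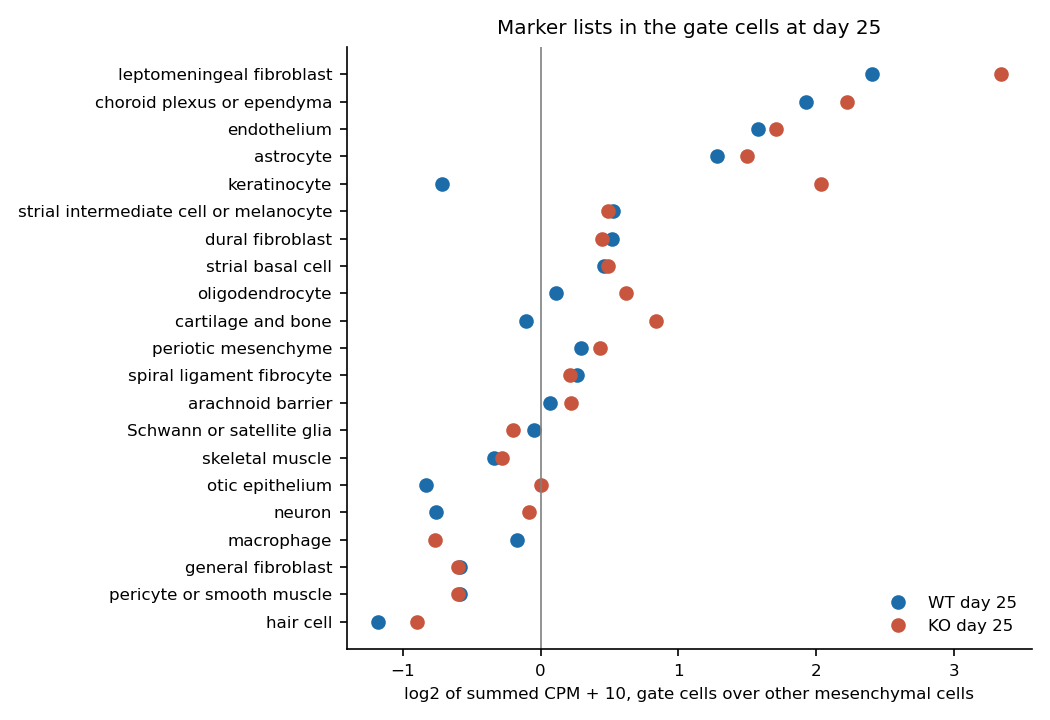
Log2 ratio of the summed CPM of each marker list (10 CPM added) in day 25 gate cells over other mesenchymal cells, for WT and KO. The leptomeningeal list, at 12310 and 10290 CPM against 2317 and 1008 CPM, lay farthest to the right, and the keratinocyte list lay on opposite sides of 0 in WT and KO.

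The pathways of the gate genes were examined through lists, beside the 1.93% of 11804 genes that were at least 2-fold higher and the 1.13% at least 2-fold lower. Of the 19 listed retinoic acid genes 3 were at least 2-fold higher, among them the retinol receptor gene Stra6, at 60.7 and 52.1 CPM in members against 18.3 and 12.2, and the target gene Rarb, at 37.5 and 29.5 CPM against 7.17 and 6.87, while Crabp1, Rbp4 and the degrading enzyme Cyp26b1 were at least 2-fold lower. Of 25 listed NRF2 and glutathione genes, 3 were higher, namely Nqo1 (111 and 107 CPM against 14.6 and 10.1), Gsta4 (399 and 409 CPM against 55.1 and 52.4) and Gstm1, and none was lower. Of 21 listed genes of the integrated stress and unfolded protein responses none was higher, and Ddit3 and Trib3 were lower. Among ligands, Bmp5, Bmp7, Wnt4 and Wnt5a were each at least 2-fold higher than in other mesenchymal cells, with Bmp7 at 125 and 115 CPM and Wnt4 at 117 and 174 CPM. Ptn (pleiotrophin), a heparin-binding growth factor, was at 5611 and 5733 CPM against 1652 and 1542.

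Members differed widely among themselves in Ptgds and in the acute phase genes Lcn2 and Saa3. Ptgds had a UMI in 64.6% of WT and 52.4% of KO members, with a median of 1 UMI and a highest cell of 1336 and 1344 UMIs. The 35 WT and 40 KO cells with most Ptgds held 76.9% and 79.8% of its UMIs. Equal numbers of cells ranked by Apod, which the gate did not use, held 40.1% and 38.9% of Apod UMIs, and ranked by Slc1a3 29.8% and 29.2%. For Lcn2, which encodes the iron-binding acute phase protein lipocalin 2, the share was 85.4% and 81.0%, and for Saa3, an acute phase gene, 93.6% and 92.5%. Ptgds, Lcn2 and Saa3 were thus concentrated in fewer members than Apod and Slc1a3 were. Genes with few UMIs reach high shares by their low counts alone, and no order over all genes was taken.

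When all day 25 cells were clustered without the 6 gate genes, 697 of the 758 members (92.0%) fell in 1 of 23 clusters, which held 328 of the WT and 369 of the KO members. That cluster had 1071 WT and 1041 KO cells, so members were 33.0% of it. Its cells outside the gate had Cldn11 in 56.9% (WT) and 61.3% (KO) and Slc6a13 in 34.5% and 41.4%. Slc7a11 was in 27.7% and 33.0%, Aldh1a2 in 23.7% and 25.9%, and Gjb6 in 17.4% and 13.1%. The common gate genes were thus not confined to members. The other members were spread over 16 clusters. The gene set that defined the other mesenchymal cells was also met by 224 WT members (63.5%) and 288 KO members (71.1%). The gene set of another tissue was met by 74 WT and 58 KO members, chiefly the muscle set, with 69 and 51 cells. The muscle set was met by 20.9% and 17.3% of all kept cells. High doublet scores were found in 38 WT (10.8%) and 63 KO (15.6%) members, against 7.81% and 8.95% of all kept cells. Without the members of high score the KO over WT ratio of the members' share, given below, was 0.960, and without members that met another tissue's set it was 1.09.

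The gate was met about equally often in both genotypes at day 25 and more often at day 35. Members were 3.61% of kept WT cells (3.25 to 4.003) and 3.62% of kept KO cells (3.28 to 3.98), a KO over WT ratio of 1.002 (0.866 to 1.16). When every cell was thinned to 3000 UMIs the shares were 1.72% and 1.65%, with a ratio of 0.961 (0.776 to 1.19). At day 35, whose libraries did not enter the choice of cells, 449 WT cells (5.50%) and 434 KO cells (6.45%) met the gate. Thinned, the day 35 shares were 4.08% and 4.73%, leaving out 3852 and 254 shallower cells. For WT the thinned share at day 35 was 2.37-fold that of day 25 (1.91 to 2.95), and for KO it was 2.86-fold (2.37 to 3.45). The KO over WT ratio at day 35 was 1.17 (1.03 to 1.34), or 1.16 (0.959 to 1.40) thinned. The gate is thus not particular to day 25. All cells of the cluster that held most members were 10.96% of WT and 9.30% of KO cells, a ratio of 0.849.

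The genes that led at day 25 were high in the day 35 gate cells too. Ptgds was at 13350 CPM in WT and 18920 in KO at day 35, Apod at 3754 and 4242, and Foxc1 at 220.2 and 176. Nqo1 was at 277 and 284 CPM, against 111 and 107 at day 25. Other cells were higher at day 35 too. Nqo1 was at 28.3 and 29.3 CPM in other mesenchymal cells of day 35, against 14.6 and 10.1 at day 25, and Ptgds was at 1728 and 977 CPM in all other kept cells, against 209.6 and 120.3. Slc6a13 was at 954 and 1022 CPM and Cldn11 at 742 and 773. Depth and mitochondrial share also differed between the days, with medians of 3139 and 4276 UMIs and of 6.24% and 4.799% in the gate cells of day 35, and their part in these levels was not tested. Otor was at 145 CPM in the WT and 0.464 CPM in the KO gate cells of day 35.

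KO over WT ratios were taken of UMIs summed over the members of each library, with 2-fold or more called a difference. Among 8671 genes with at least 50 UMIs over both libraries, 129 (1.49%) were at least 2-fold higher in KO members and 50 (0.577%) at least 2-fold lower. In the other mesenchymal cells, 159 of 13380 genes (1.19%) were higher and 205 (1.53%) lower. Of the 129 genes, 15 were also at least 2-fold higher in the other mesenchymal cells and 43 had the opposite sign there. Of the 50 genes, 10 were also at least 2-fold lower there and 5 had the opposite sign. In 20 of the 129 genes at least 50% of the KO UMIs came from 1 cell. The numbers higher and lower were 93 and 41 when each gene was counted without its top cell per library, 120 and 48 without members of high doublet score, and 90 and 38 without members that met another tissue's set. The 5 common gate genes had log2 ratios from -0.06 for Aldh1a2 to 0.17 for Slc7a11, but the gate required them in both libraries, so nothing is read from these values. Ptgds, at -0.26 (-0.28 to -0.23), and Apod, at -0.03 (-0.09 to 0.02), were within 2-fold.

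Imprinted genes, which are expressed from the copy of only 1 parent, gave differences that many cells carried. H19, a maternally expressed non-coding RNA, had 2159 UMIs in WT and 10418 in KO members, or 809 and 3270 CPM, a log2 ratio of 2.02 (1.95 to 2.08). It was found in 64.6% of WT and 97.3% of KO members, with a median of 1 and 15 UMIs per cell. The ratio was 1.81 in other mesenchymal cells and 2.20 (1.98 to 2.42) in the day 35 gate cells, so H19 was higher in KO in each of these sets. Igf2, the paternally expressed growth factor gene beside H19, was at 828 CPM in WT and 285 in KO, a log2 ratio of -1.54 (-1.65 to -1.43), with -1.01 (-1.27 to -0.76) at day 35 and -2.23 (-2.26 to -2.20) in other mesenchymal cells. Cdkn1c, a maternally expressed inhibitor of cell cycle kinases, was at 299 and 54.0 CPM, with ratios of -2.47 (-2.72 to -2.23) in members, -1.52 at day 35 and -3.61 (-3.70 to -3.53) in other mesenchymal cells. Igf2 and Cdkn1c were thus lower in KO by less in members than in other mesenchymal cells, a difference that was not tested.

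Further genes of the imprinted list differed in both directions. Grb10, which encodes an adaptor that dampens insulin and IGF signalling, had 92 UMIs in WT and 3 in KO, a log2 ratio of -5.19 (-7.50 to -3.60), with -5.25 in other mesenchymal cells. Igf2r, the receptor that clears IGF2, was at 39.4 and 9.73 CPM (-2.02, -2.64 to -1.43). It was at -1.32 in other mesenchymal cells, and within 2-fold at day 35, at -0.82 (-1.68 to 0.02). Mest, a paternally expressed hydrolase gene, was at 425 and 976 CPM (1.20, 1.10 to 1.30), with 1.36 at day 35. In other mesenchymal cells Mest was within 2-fold, at 0.78. Peg10 and Mirg were called higher at 1.08 and 1.03. Of the 20 measured imprinted genes, 4 were at least 2-fold higher and 4 at least 2-fold lower, where 3.02% and 1.23% of 10992 genes with at least 20 UMIs were. Meg3 and Dlk1, other imprinted genes, were within 2-fold at 0.18 and -0.19.

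Lcn2, Reg3g, Spp1 and Timp1 were among the 15 genes that the rule named as lower in KO. They are grouped here because they encode secreted proteins, and the share of such genes among all genes was not counted. Lcn2 was at 932 CPM in WT and 294 in KO, a log2 ratio of -1.66 (-1.77 to -1.56), with -1.69 (-1.83 to -1.56) at day 35 and -1.18 in other mesenchymal cells. Reg3g, an antimicrobial lectin gene, had 141 UMIs in 34 WT members and 6 UMIs in 6 KO members (-4.81, -6.28 to -3.65), and -3.37 at day 35, with 51 of the WT UMIs in 1 cell. Outside the gate at day 25 it was lower in KO too, at -2.31 both in other mesenchymal cells and in all other kept cells. Spp1 (osteopontin) was at 156 and 60.0 CPM (-1.38, -1.64 to -1.13), with -1.32 at day 35. It was at -0.99 in other mesenchymal cells and at 0.44 in all other kept cells. Timp1, an inhibitor of matrix proteases, was at 306 and 127 CPM (-1.26, -1.44 to -1.09), but was within 2-fold at day 35 at -0.62 (-0.89 to -0.35) and in other mesenchymal cells at -0.68. Taken over all cells of the main cluster, Lcn2 was at -0.74 and Spp1 at -0.80, no longer 2-fold, and with 5 of 6 gate genes required Spp1 was at -0.91 and Timp1 at -0.87. Spp1 and Timp1 were also under 2-fold after thinning, at -0.80 and -0.69. Spp1 was at -0.77 with 3 of 6 gate genes, and Timp1 at -0.998 without members that met another tissue's set. Saa3 was within 2-fold at day 25 (-0.48) and lower at day 35 (-1.73), and 1 KO cell held 39.6% of its day 25 UMIs in KO. Of the 23 measured chemokine, complement and acute phase genes 2 were called higher, Cxcl10 and Ccl11, and 2 lower, Lcn2 and Cxcl5, beside 3.02% and 1.23% of all genes. The list median was 0.02, with 14 of 23 above 0, where 6340 of all 10992 genes were above 0.

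Inmt, a methyltransferase gene, and Aard were lower in KO at day 25 and not at day 35. Inmt was at 55.1 CPM in WT and 14.7 in KO (-1.90, -2.41 to -1.42), with 0.82 (0.20 to 1.48) at day 35. It was at -0.74 over all cells of the main cluster. Aard was at 64.8 and 19.8 CPM (-1.71, -2.15 to -1.29), with 0.54 (0.09 to 0.99) at day 35. Fam180a, with 40 and 13 UMIs, completed this group at -1.88. Adh1, an alcohol dehydrogenase that also acts on retinol, and Myadm were higher in KO at day 25. Adh1 had 8 UMIs in 8 WT members and 59 in 36 KO members (2.63, 1.56 to 3.90), and Myadm 24 UMIs in 20 WT and 103 in 78 KO members (1.85, 1.19 to 2.55). Neither was 2-fold at day 35, with 0.63 (-0.04 to 1.32) for Adh1 and 0.11 (-0.60 to 0.84) for Myadm. Both were also higher in KO outside the gate at day 25. Myadm was at 1.405 (1.262 to 1.549) in other mesenchymal cells and 1.398 in all other kept cells. Adh1 was within 2-fold there, at 0.63 and 0.82. Mybpc1 and Rbm24, muscle genes, had 46 and 49 UMIs in KO and 7 and 8 in WT, ratios of 2.46 and 2.36. Of the 46 Mybpc1 UMIs, 16 came from 1 KO cell. At day 35 both were lower in KO, at -1.59 (-3.26 to -0.12) for Mybpc1 and -2.96 (-6.16 to -0.79) for Rbm24. Counts were low there, with 14 WT and 6 KO UMIs for Mybpc1. Rbm24 had 12 WT and 2 KO UMIs, under the minimum of 20 set for list members. Over all cells of the main cluster at day 25 Mybpc1 and Rbm24 were at 0.47 and 0.84. Without members that met another tissue's set Rbm24 was at 1.25, and Mybpc1 had too few UMIs to be measured. The skeletal muscle list summed to 1112 CPM in WT and 189 CPM in KO gate cells of day 35. In all other kept cells of that day it summed to 4596 and 1493 CPM, and its part in the day 35 ratios was not tested.

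Most keratinocyte genes named for KO came from a single cell. That KO cell had 36928 UMIs and met the epithelial and muscle sets as well as the gate through Cldn11, Slc6a13, Gjb6 and Slc7a11, and its doublet score was not among the high ones. It held 402 of 409 Krt14 UMIs, 164 of 173 Krt5 UMIs, 243 of 311 Sfn UMIs and 159 of 186 Fgfbp1 UMIs of the KO members. It also held 70 of 75 Ly6d UMIs, 49 of 52 Asprv1 UMIs and 59 of 72 Tslp UMIs. The keratinocyte list summed to 327 CPM in KO members with this cell and to 67.0 CPM without it, against 117 CPM in WT members. Without the top cell of each library the log2 ratio of Krt14 was -2.91 and that of Krt5 -2.09. Other KO cells held 91 of 101 UMIs of Krt35, a hair keratin, and 63 of 68 UMIs of Cntn1, a neural adhesion gene. In WT 1 cell with 11565 UMIs held 101 of 107 UMIs of 5430401F13Rik and 174 of 206 of Gm6619. Gfap, an astrocyte filament gene, had 37 of 65 WT UMIs in 1 cell, and Krt15 had 29 and 26 of its 76 WT UMIs in 2 cells. Those few cells carry the values of these genes, and no difference of the remaining members is read from them.

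**Figure D4:**
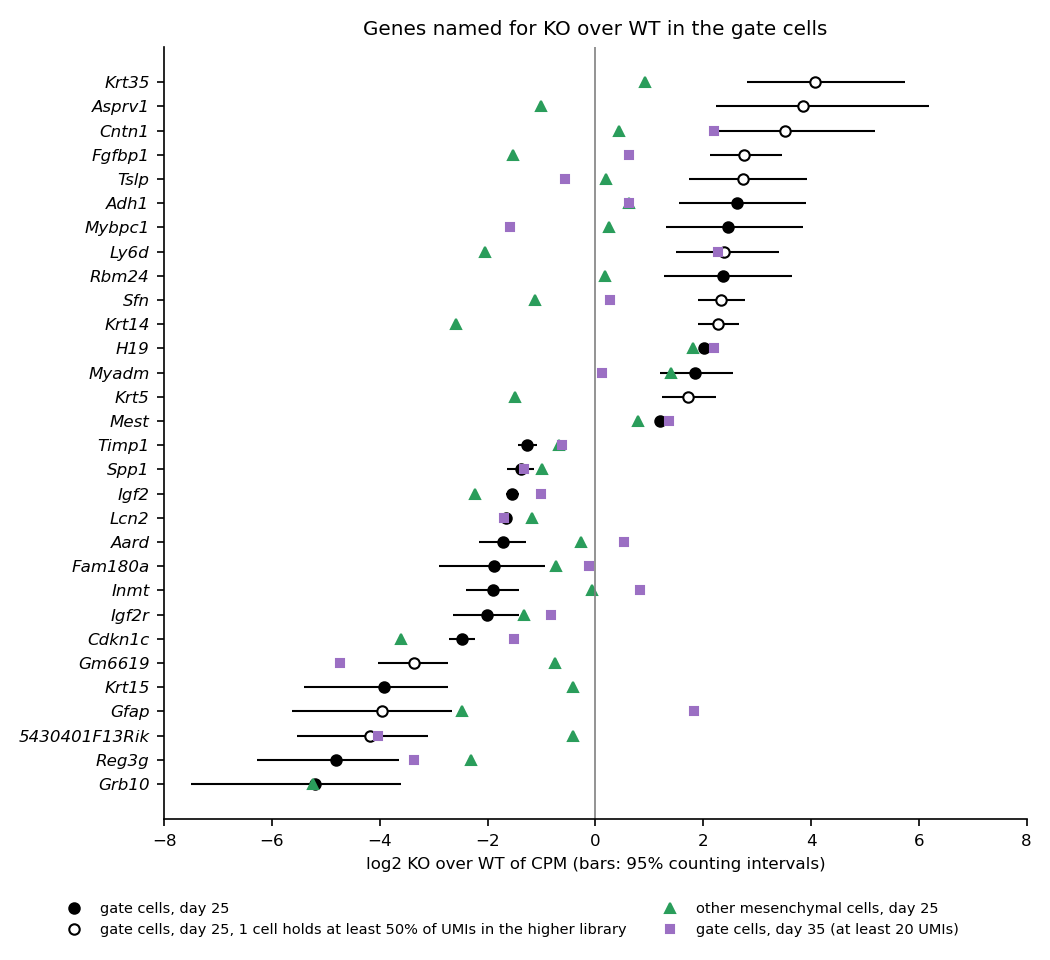
Log2 KO over WT ratio of the 30 genes named by the rule in day 25 gate cells (circles with 95% counting intervals), in other mesenchymal cells (triangles) and in day 35 gate cells (squares). Open circles mark genes with at least 50% of UMIs in 1 cell of the higher library, among them Krt14 at 2.27. H19 at 2.02 and Grb10 at -5.19 lay close to their values in other mesenchymal cells.

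A further part of the rule named genes whose ratio differed most from that in other mesenchymal cells, a difference that was not tested. Besides the keratinocyte genes, Tff3, a secreted trefoil peptide, had 0.67 (0.11 to 1.25) in members and -3.90 in other mesenchymal cells. In KO 1 cell held 20 of its 78 UMIs, and with 5 of 6 gate genes required its ratio in members was -0.35. Slc13a3, a dicarboxylate transporter of the leptomeningeal list, had 0.63 (0.09 to 1.18) in members, at 16.9 and 26.1 CPM, and 3.24 in other mesenchymal cells, where it was at 0.77 and 7.29 CPM.

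The medians of the collagen, immediate early and heat shock, mitochondrially encoded, and metallothionein and iron lists were within 2-fold, though single genes were called. The 24 collagen genes had a median log2 ratio of 0.39, with 21 above 0 and none called in either direction. The median was 0.06 over all genes, of which 6340 of 10992 were above 0. For the same list in other mesenchymal cells it was 0.27. Col1a1 was at 2216 CPM in WT and 3116 in KO (0.49, 0.45 to 0.54), and at 0.996 (0.92 to 1.07) at day 35. Col4a1, a basement membrane collagen, had 0.72 (0.59 to 0.84). Immediate early and heat shock genes had a median of 0.49, with 18 of 23 above 0 and 3 called higher, Egr2, Hspa1a and Hspa1b, where 3.02% of all genes were. Egr1 was at 645 and 1017 CPM (0.66, 0.57 to 0.74), and these genes also respond to cell dissociation, whose part was not tested. Mitochondrially encoded genes had a median of -0.23, with 11 of 13 below 0 and mt-Atp8 called higher. Metallothionein and iron genes had a median of -0.26.

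Lists tied to the leading genes stayed near the median of all genes, and their calls stand beside 3.02% of all genes called higher and 1.23% lower. The solute carriers had a median of 0.09, with Slc6a20a, an amino acid transporter, as the only one of 19 called, at 46.5 and 97.6 CPM (1.07, 0.77 to 1.38), and at -0.15 at day 35. The NRF2 and glutathione list had a median of -0.04 with 0 of 24 called. The retinoic acid list had -0.03, with Aldh1a1 and Aldh1a3 called higher of 15, both at 12.6 CPM in KO. The positional transcription factors had -0.06, with Foxf2 called higher and Alx1 lower of 28. Of the Wnt genes Dkk2 and Notum, which both restrain Wnt signalling, were called higher and Wnt16 lower of 19. Notum had 13 UMIs in WT and 45 in KO (1.54, 0.62 to 2.55), and 1.92 (1.20 to 2.71) at day 35.

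**Figure D5:**
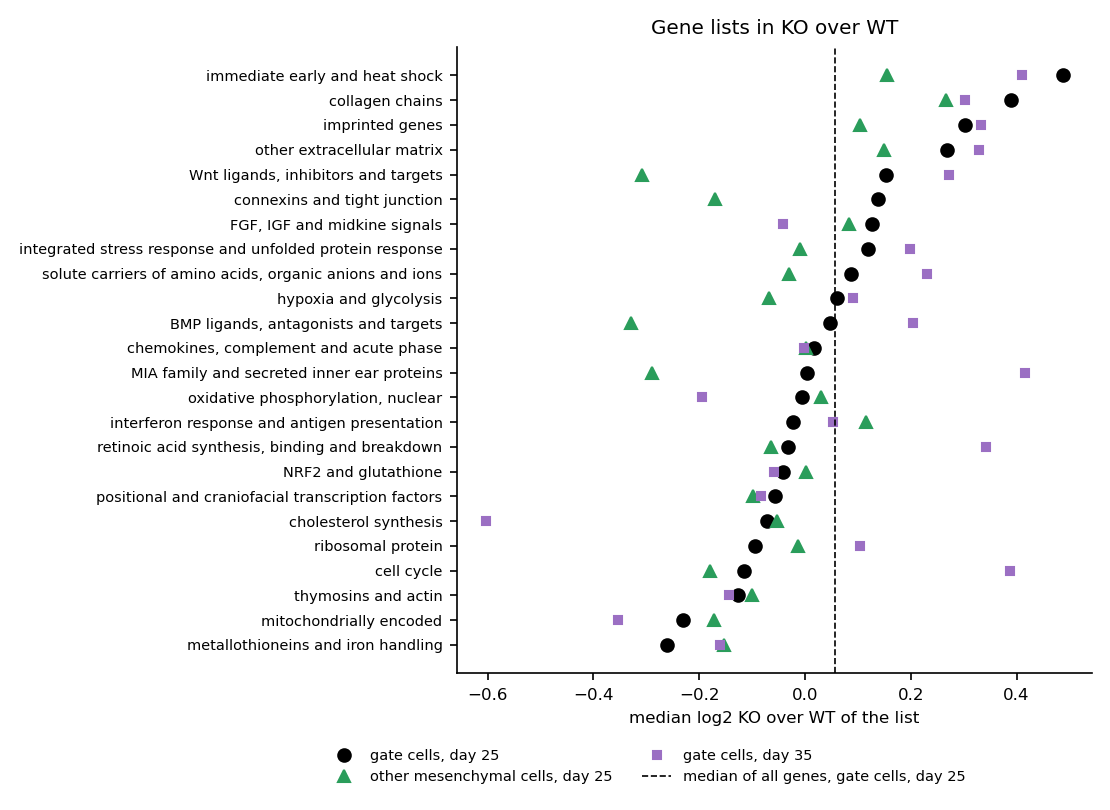
Median log2 KO over WT ratio of each gene list with at least 10 measured genes in day 25 gate cells (circles), other mesenchymal cells (triangles) and day 35 gate cells (squares). The dashed line is the median of all genes in the day 25 gate cells, 0.06. The collagen list at 0.39 and the immediate early list at 0.49 lay to the right of it.

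The same ratios were taken in the gate cells of day 35, where 130 of 7085 genes (1.83%) were at least 2-fold higher in KO and 76 (1.07%) at least 2-fold lower. Over the 6991 genes measured on both days, 66 were higher at day 25 and 120 at day 35, and 9 were shared, or 13.6% of the day 25 and 7.50% of the day 35 genes. These 9 were H19, Mest, Prelp, Notum, Aldh1a1, Cntn1, Krtdap, Ly6d and Gm8113. At day 25, 3 of these rested on 1 KO cell each, which held 63 of 68 Cntn1 UMIs, 172 of 185 Krtdap UMIs and 70 of 75 Ly6d UMIs, so they are not read as differences shared by the members of both days. Of those lower, 29 at day 25 and 71 at day 35, 11 were shared, or 37.9% and 15.5%. They included Igf2, Cdkn1c, Lcn2, Spp1, Reg3g, Chil1 and the muscle genes Myl4 and Tnnc1, and also Gm6619, of which 1 WT cell held 174 of 206 UMIs at day 25. Of the day 25 genes higher in KO 6 were at least 2-fold lower at day 35, and of those lower 1 was at least 2-fold higher. The days compared the same pair of cell lines, and genotype and line cannot be told apart.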

How the data were processed

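UMI counts per gene and barcode were deposited by the authors as 1 matrix of whole numbers per library, made with the 10x Genomics v2 kit per the labels' protocols. The submitters' processing notes name R 3.5.1, Seurat 2.3.1, Cell Ranger 2.1.0 and bcl2fastq, and the builds mm10 and GRCm38; how reads were aligned and counted was not given in the sources used here. The members and gene lists were chosen with earlier results of these data known. Cells were filtered, gated and summed with Python 3.11.15, numpy 2.4.6 and scipy 1.17.1, and levels are summed UMIs per 1000000 (CPM). Ratios have exact conditional binomial intervals, levels exact Poisson and shares Clopper-Pearson intervals at 95%, all covering counting error only; where 1 count was 0, a floor of 3 counts was used. Genes were named by rank of the interval bound nearest 0 (15 higher, 15 lower, and 5 of each differing most from other mesenchymal cells), and by fold for the leading genes (20 over all other cells, 15 above and 10 below other mesenchymal cells), leaving out gate, mitochondrially encoded and ribosomal protein genes. Any gene of a list could serve as its example. Calls needed 50 UMIs over both libraries, list members 20. Doublets were scored with Scrublet in scanpy 1.11.5 and not removed, except as an alternative. Clustering was Leiden at resolution 1.0 on 30 components of 2000 genes. The ratio code was tested on simulated data. Of 27998 gene IDs, 27645 matched GENCODE M21, which gave gene positions. Some genes are not reported here.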

Additional observations from a re-analysis of the deposited data

Results flagged for a closer look

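Asprv1, Fgfbp1, Krt14, Sfn, Ly6d and Krt5 were higher in KO than in WT among the day 25 gate cells and lower in KO among the other mesenchymal cells of the same libraries. The difference between the 2 sets of cells was not tested. The log2 ratio was 3.86 in gate cells and -1.01 in other mesenchymal cells for Asprv1, an epidermal protease gene. It was 2.76 and -1.54 for Fgfbp1, 2.27 and -2.58 for Krt14, and 2.33 and -1.12 for Sfn. It was 2.39 and -2.06 for Ly6d and 1.72 and -1.49 for Krt5. The same KO cell held 78.1% to 98.3% of the KO members' UMIs of each of these 6 genes.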

How the results depend on the processing

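No paired analysis was possible because each group was 1 library and the labels carry no replicate numbers; leaving out a replicate was not possible for the same reason. The KO over WT share ratio was 0.938 to 1.09 under the alternatives, other than 0.849 for all cells of the main cluster. The counts of 129 genes higher and 50 lower in KO were taken anew over the genes tested under each alternative, and shared genes were not counted. With 5 of 6 gate genes, where 5692 genes were tested, 72 were higher. With a minimum of 100 UMIs 52 were higher and 24 lower, with 20 UMIs 332 and 135, with no filter on low counts 1665 and 1562, and with thinning 33 and 17, where 2916 genes were tested. The number of leading genes kept was 6 of 15 with 1 CPM and 6 with 50 CPM added. Of 439 ratios of named and gate genes, 25 differed in sign from the original, 12 of them for a gene that had been at least 2-fold and the others for genes within 2-fold, such as Tff3 with 5 of 6 gate genes (-0.35). With 3 of 6 gate genes 5430401F13Rik had 0.59 and Gm6619 1.61. Over all cells of the main cluster, chosen as an alternative after seeing the data, Fgfbp1 had -0.97, Krt14 -2.25, Krt5 -1.91, Ly6d -2.08 and Sfn -0.77. Without the top cell, also added after seeing the data, Krt14 had -2.91 and Krt5 -2.09, and without members of another tissue's gate -3.06 and -2.19. With 5 of 6 gate genes Krt14 had -2.93. Of 309 list medians 297 lay within the order-statistic interval of the original median and 12 outside it. Among the 12 was that of the cell cycle list, at -0.12, which was 0.12 with 3 of 6 gate genes and -0.58 with 5 of 6. Of the 309 medians, 45 differed in sign from the original. The cause of these differences was not tested.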
